A study of Homo sapiens with 24 samples.

Results

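Homologous recombination rebuilds a broken chromosome by copying the intact sister chromatid, and the Fanconi anaemia pathway unhooks crosslinks between DNA strands and hands the resulting break to the same machinery. Both act mainly in S and G2 phase, when a sister chromatid exists, and many of their genes are transcribed more in cycling than in resting cells. Transcripts of 37 such genes were followed here, out of 25702 gene identifiers in the count tables. They were chosen by symbol, as the subunits and partners of the BRCA1 and BRCA2 complexes, the strand exchange factors, the Fanconi core complex and its FANCD2 and FANCI clamp, the factors that process break ends, the checkpoint kinases and mediators, and the enzymes EME1 and POLQ. Of these, 36 passed the filter on low counts and were tested among 13356 genes.

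The cells were IMR90, diploid human lung fibroblasts. All of them carried ER:HRAS(G12V), an oncogenic HRAS fused to the oestrogen receptor hormone-binding domain and switched on by 4-hydroxytamoxifen (4OHT), and all were at passages 23 to 28. The growing group had the MSCV vector and no 4OHT, the shHMGA1 group had a miR30-based hairpin against HMGA1 in the same MSCV backbone and no 4OHT, the RIS (RAS-induced senescence) group had the MSCV vector and 6 days of 4OHT, and the RIS+shHMGA1 group had the hairpin and 6 days of 4OHT. Each group had 6 libraries of polyadenylated RNA, described as biological replicates. The hairpin group without 4OHT and the vector group without 4OHT are the respective controls, so that the effect of 4OHT was read separately in hairpin and in vector cells. No group had 4OHT without the RAS fusion, so that effects of the drug and of RAS cannot be told apart.

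Total counts per library lay between 8698070 and 23103424. HMGA1, the target of the hairpin, was at 639 to 861 CPM (counts scaled to the TMM-normalised library size) in growing and 641 to 786 CPM in RIS, and at 54.4 to 143 CPM in shHMGA1 and 60.0 to 262 CPM in RIS+shHMGA1. Summed CPM of 8 fibroblast markers was at least 4386 in every library, whereas 5 epithelial markers summed to at most 1.35 CPM, 4 endothelial markers to at most 2.65 CPM and 5 immune markers to at most 1.38 CPM. The fibroblast sum was lower with 4OHT, at 14070 to 20630 CPM in shHMGA1 and 4386 to 5837 CPM in RIS+shHMGA1. The libraries labelled growing 4 and RIS 2 went against their labels. Summed CPM of 12 proliferation markers was 267.5 in growing 4 against 847 to 1239 in the other growing libraries, and 944 in RIS 2 against 162.5 to 240 in the other RIS libraries. Summed CPM of 8 senescence-associated genes (among them CDKN1A, IL1A, IL1B, IL6 and CXCL8) was 75780 in growing 4 against 3246 to 9705, and 3507 in RIS 2 against 26420 to 55440. The fibroblast sum was 5199 in growing 4 against 23580 to 42610, and 28360 in RIS 2 against 5833 to 9659. Both were kept in their labelled groups, and the contrasts that contain them are given with and without them.

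The comparison of RIS+shHMGA1 with shHMGA1, which asks how 4OHT changed the genes in hairpin cells, contains neither of those libraries and is described first. Its SEs and adjusted p-values still depend on both, because the spread was estimated over all 24 libraries. Transcripts of 22 of the 36 tested members were lower in RIS+shHMGA1 (edgeR quasi-likelihood test, Benjamini-Hochberg adjusted p under 0.01 and a log2 fold change beyond ±0.58). Over all 13356 genes tested, 19.5% were called lower. No member was called higher, where 19.6% of all genes were; DESeq2 also called 0 higher and 22 lower, and 27 members and 67.4% of all genes had an unadjusted p under 0.05 in either direction. The median log2 fold change was −1.45 over the members and −0.02 over all genes tested. The median SE of the members was 0.26, and 0.16 when growing 4 and RIS 2 were left out of the fit. In that fit 23 members and 21.9% of all genes were called lower. For each of the 22 lower members, all 6 shHMGA1 libraries lay above all 6 RIS+shHMGA1 libraries, a separation that held for 22.5% of all genes tested. Falls of over 3 on the log2 scale were found in BARD1, POLQ, BRIP1, BLM, EXO1, FANCD2 and BRCA2, and the ATM, ATR, CHEK2, RAD50, NBN and TP53BP1 transcripts were not called. In bulk RNA, fewer cycling cells and less of a transcript per cell cannot be told apart. All 12 proliferation markers were also lower in RIS+shHMGA1, and their part in these results was not tested.

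**Figure D1:**
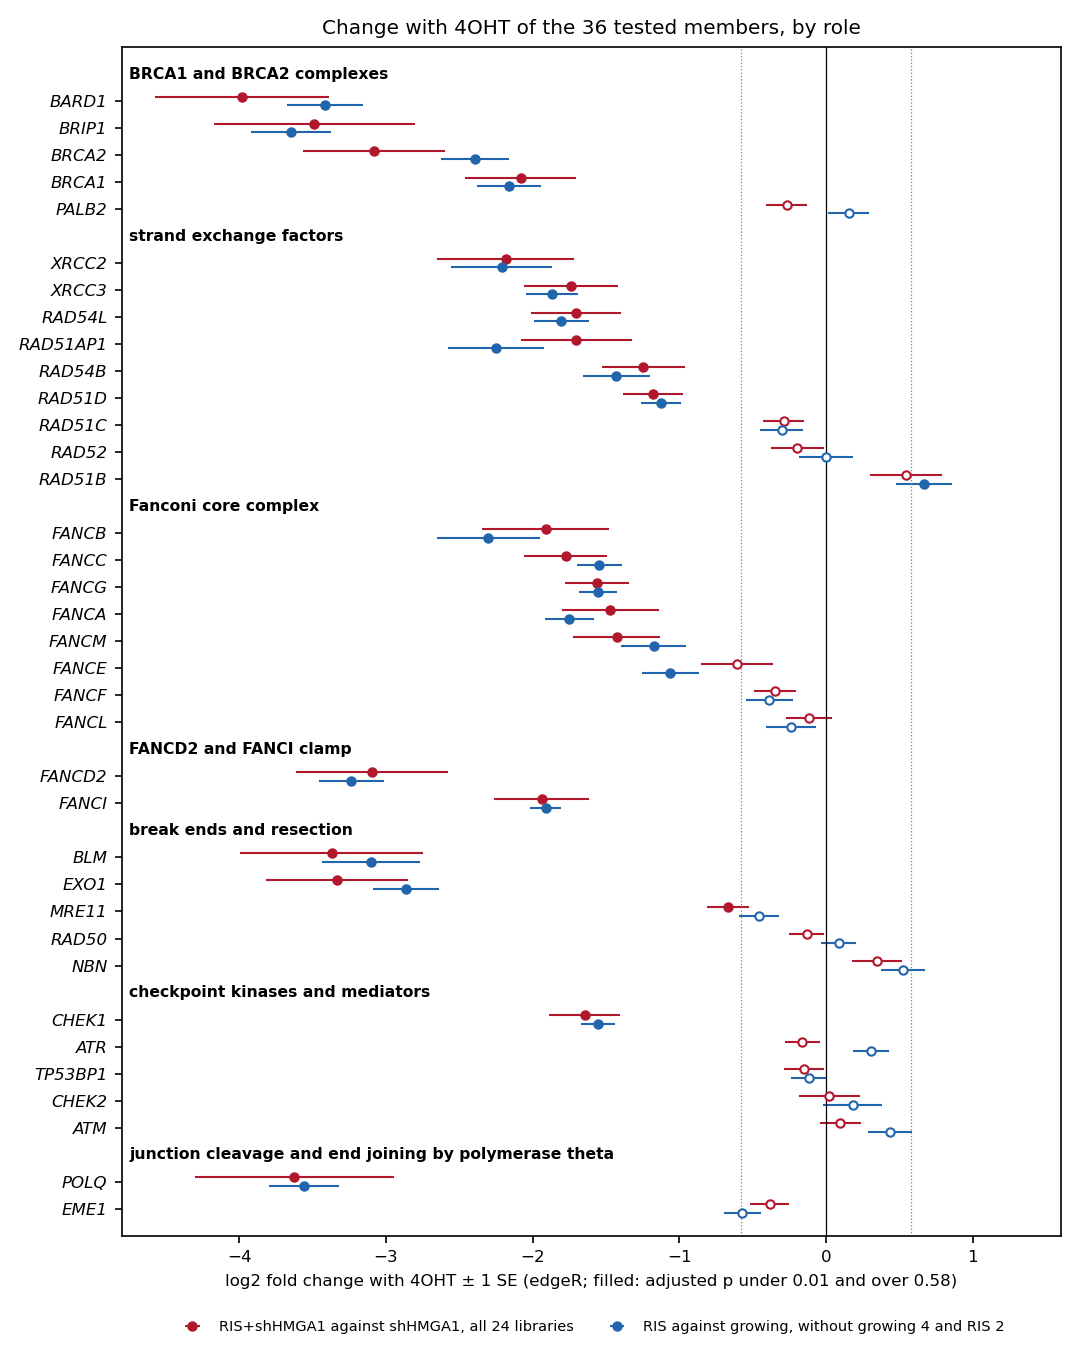
Log2 fold change with 4OHT (x axis, ± 1 SE) of the 36 tested members, grouped by role, in hairpin cells (red, all 24 libraries in the fit) and in vector cells (blue, without the libraries growing 4 and RIS 2). Filled points were called, and the dotted lines mark ±0.58. BARD1, POLQ and BRIP1 lie farthest to the left at −3.98, −3.63 and −3.49 in hairpin cells, and RAD51B lies to the right of 0 in both.

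E2F factors switch on genes at the G1 to S transition, and the DREAM complex, which holds E2F4 together with MuvB proteins, represses genes in resting cells through E2F sites and CHR elements. RefSeq promoter windows (GRCh38.p14, 250 bases before to 50 bases after an annotated start) were matched by symbol for 34 of the 37 members, not for FANCI, NBN and RAD54B. They were searched on both strands for the E2F letters TTTCCCGC, TTTGGCGC, TTTCGCGC and TTTGCCGC. One or more of these were found in 5 of the 20 lower members with a window (25%), in 0 of the 13 tested members that were not called, in 6.62% of the 10412 tested genes with a window and in 9.03% of the 2048 lower genes with a window. The CHR letters TTTGAA or TTCGAA were found in 15% of the lower members, 7.69% of the members not called and 15.7% of the tested genes, and CCAAT in 50%, 38.5% and 43%. The windows of the 5 members that hold E2F letters are shown because these are the stretches the search turned on; each is written 5′ to 3′ on the gene's strand, and capitals mark the E2F letters or their reverse complement.
FANCD2 (chr3:10026187-10026486, plus strand): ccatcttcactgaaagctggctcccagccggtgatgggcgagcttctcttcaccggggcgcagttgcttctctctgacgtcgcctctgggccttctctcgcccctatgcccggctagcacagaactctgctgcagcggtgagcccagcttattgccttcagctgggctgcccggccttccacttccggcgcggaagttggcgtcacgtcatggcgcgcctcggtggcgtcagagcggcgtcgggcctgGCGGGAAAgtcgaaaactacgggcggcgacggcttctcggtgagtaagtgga
EXO1 (chr1:241847954-241848253, plus strand): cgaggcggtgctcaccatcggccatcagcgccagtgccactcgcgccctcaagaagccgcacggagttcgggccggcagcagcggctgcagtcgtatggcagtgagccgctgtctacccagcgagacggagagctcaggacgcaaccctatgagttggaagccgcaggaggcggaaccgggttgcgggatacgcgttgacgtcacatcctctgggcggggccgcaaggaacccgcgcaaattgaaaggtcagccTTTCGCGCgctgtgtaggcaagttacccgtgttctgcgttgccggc
XRCC2 (chr7:152676092-152676391, minus strand): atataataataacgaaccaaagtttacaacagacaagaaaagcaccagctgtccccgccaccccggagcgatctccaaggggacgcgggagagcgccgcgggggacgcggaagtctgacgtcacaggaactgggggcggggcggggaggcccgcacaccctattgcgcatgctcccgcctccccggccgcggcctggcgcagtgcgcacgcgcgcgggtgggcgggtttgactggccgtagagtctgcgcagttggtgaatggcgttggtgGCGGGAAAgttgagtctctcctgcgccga
FANCC (chr9:95317660-95317959, minus strand): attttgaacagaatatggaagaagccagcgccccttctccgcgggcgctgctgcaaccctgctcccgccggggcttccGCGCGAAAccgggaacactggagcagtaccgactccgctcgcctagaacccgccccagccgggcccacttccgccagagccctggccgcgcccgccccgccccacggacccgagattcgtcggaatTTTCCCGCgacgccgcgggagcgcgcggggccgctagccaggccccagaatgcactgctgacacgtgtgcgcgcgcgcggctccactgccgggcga
FANCA (chr16:89816598-89816897, minus strand): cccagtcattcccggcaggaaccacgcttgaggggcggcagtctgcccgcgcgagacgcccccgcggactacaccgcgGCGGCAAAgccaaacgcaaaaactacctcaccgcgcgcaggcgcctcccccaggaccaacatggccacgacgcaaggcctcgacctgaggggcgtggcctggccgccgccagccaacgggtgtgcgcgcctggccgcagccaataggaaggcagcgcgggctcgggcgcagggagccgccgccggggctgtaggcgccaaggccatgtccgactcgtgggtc
Counted from the annotated start, the first base of the match lies at −2 in FANCD2, 4 in EXO1, 21 in XRCC2, −172 in FANCA, and at −172 and −46 in FANCC. EXO1 and FANCC have a second annotated window, in which the letters were not found. These matches are descriptions of the letters and not of bound sites.

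In the BRCA1 and BRCA2 complexes, 4 of 5 members were lower in RIS+shHMGA1 than in shHMGA1 and PALB2 was not called. BARD1 is the RING-domain partner with which BRCA1 forms a ubiquitin ligase. Its lowest, median and highest values in the 6 libraries were 7.55, 10.4 and 11.6 CPM in shHMGA1 and 0.198, 0.556 and 1.18 CPM in RIS+shHMGA1. The groups did not overlap, and the log2 fold change of BARD1 was −3.98 (SE 0.60, adjusted p = 0.000188, edgeR), or 15.8-fold lower. BRIP1, a helicase that binds the BRCT repeats of BRCA1, had 14.7, 22.3 and 26.9 CPM in shHMGA1 and 1.39, 1.87 and 2.78 CPM in RIS+shHMGA1. All 6 RIS+shHMGA1 libraries were therefore far below the shHMGA1 libraries, with a log2 fold change of BRIP1 of −3.49 (SE 0.69, adjusted p = 0.00043, edgeR). BRCA2, which acts in filament assembly on single-stranded DNA, fell by 3.08 on the log2 scale (SE 0.48), and BRCA1 itself, from 17.3, 22.7 and 34.3 CPM to 4.06, 5.90 and 8.23 CPM, fell by 2.08 (SE 0.38). PALB2, the bridge between BRCA1 and BRCA2, was at 11.7, 14.7 and 17.4 CPM in shHMGA1 and 10.4, 11.9 and 14.4 CPM in RIS+shHMGA1. These ranges overlapped, and the log2 fold change of PALB2 was −0.27 (SE 0.14, adjusted p = 0.0944, edgeR). BARD1 was read from 2 to 201 counts per library and PALB2 from 78 to 281, so that the BARD1 levels after 4OHT rest on few reads.

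Of the 9 strand exchange factors, 6 were lower and 3 were not called. The paralogs RAD51B, RAD51C, RAD51D, XRCC2 and XRCC3 help to build and stabilise the nucleoprotein filament that invades the intact DNA. Among them XRCC2 fell by 2.18 on the log2 scale (SE 0.47), XRCC3 by 1.74 (SE 0.32) and RAD51D by 1.18 (SE 0.20), whereas RAD51C had a log2 fold change of −0.29 (SE 0.14, adjusted p = 0.0739, edgeR). RAD51B, which sits with RAD51C, RAD51D and XRCC2 in one complex, had 4.83, 6.43 and 8.01 CPM in shHMGA1 and 7.84, 9.32 and 10.3 CPM in RIS+shHMGA1. It was the only paralog with a positive value, and its log2 fold change of 0.54 (SE 0.24, adjusted p = 0.0562, edgeR) did not pass the thresholds. RAD51AP1, which stimulates strand invasion, had the most counts per kilobase of transcript in this group. Its values were 23.4, 25.8 and 38.4 CPM in shHMGA1 and 4.07, 9.67 and 11.8 CPM in RIS+shHMGA1. No RIS+shHMGA1 library reached the lowest shHMGA1 library, and RAD51AP1 fell by 1.70 on the log2 scale (SE 0.38, adjusted p = 0.000933, edgeR). The translocases RAD54L and RAD54B, which remodel the joint molecules, fell by 1.71 (SE 0.31) and 1.24 (SE 0.28), and RAD52, an annealing protein, was not called at −0.20 (SE 0.18).

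The Fanconi core complex is the ubiquitin ligase that modifies FANCD2 and FANCI. Of its 8 subunits measured here, FANCB, FANCC, FANCG, FANCA and FANCM were lower in RIS+shHMGA1, with log2 fold changes between −1.91 and −1.43. FANCG, an adaptor subunit, had 24.6, 29.2 and 35.98 CPM in shHMGA1 and 7.42, 10.2 and 12.1 CPM in RIS+shHMGA1. The groups were well apart, with a log2 fold change of FANCG of −1.56 (SE 0.22, adjusted p = 0.000183, edgeR). FANCL, the catalytic RING subunit, was at 23.0, 30.2 and 35.5 CPM in shHMGA1 and 22.6, 27.1 and 33.3 CPM in RIS+shHMGA1. These values covered nearly the same range, and the log2 fold change of FANCL was −0.11 (SE 0.16, adjusted p = 0.528, edgeR). FANCE and FANCF, the subunits that connect FANCD2 and the other core proteins to the complex, had log2 fold changes of −0.61 (SE 0.24, adjusted p = 0.0344, edgeR) and −0.35 (SE 0.14). FANCE passed the thresholds when growing 4 and RIS 2 were left out of the fit, at −0.61 (SE 0.18, adjusted p = 0.0042, edgeR), where the pooled spread between replicates was smaller.

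FANCD2 and FANCI form the clamp that closes on DNA once it is ubiquitinated, and both were lower. FANCD2 had 19.4, 25.9 and 30.8 CPM in shHMGA1 and 1.01, 3.44 and 4.31 CPM in RIS+shHMGA1. Its level in RIS+shHMGA1 was 11.7% of that in shHMGA1 (log2 fold change −3.09, SE 0.52, adjusted p = 0.000222, edgeR). FANCI was at 56.4, 78.5 and 82.1 CPM in shHMGA1 and 18.9, 19.4 and 20.4 CPM in RIS+shHMGA1. The 6 RIS+shHMGA1 libraries lay within 2 CPM of each other, and 26.1% of the FANCI level remained (log2 fold change −1.94, SE 0.32, adjusted p = 0.000222, edgeR). Without 4OHT the members of the clamp differed in level, with 4.90 CPM per kilobase of the longest annotated transcript for FANCD2 and 13.4 for FANCI in shHMGA1 cells. FANCD2 has named pseudogenes and FANCI exons overlap POLG on the other strand, so these levels may include or lack shared reads.

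Break ends are recognised by MRE11, RAD50 and NBN and then resected by EXO1 and by nucleases that work with the BLM helicase. BLM and EXO1 were among the largest falls. BLM had 4.83, 7.56 and 12.1 CPM in shHMGA1 and 0.381, 0.747 and 1.17 CPM in RIS+shHMGA1, from 2 to 180 counts per library. EXO1 had 18.8, 23.1 and 34.4 CPM in shHMGA1 and 2.17, 2.43 and 3.01 CPM in RIS+shHMGA1. Neither gene showed any overlap between the groups, and the log2 fold changes were −3.37 (SE 0.63) for BLM and −3.33 (SE 0.49) for EXO1. The MRE11 complex differed from these. MRE11 fell by 0.67 on the log2 scale (SE 0.14, adjusted p = 0.000752, edgeR), RAD50 had a value of −0.13 (SE 0.12) and NBN one of 0.35 (SE 0.17, adjusted p = 0.0745, edgeR). NBN, which recruits ATM to breaks, was at 74.9, 91.1 and 105 CPM in shHMGA1 and 96.6, 121 and 133 CPM in RIS+shHMGA1. It had the highest level per kilobase of this group in RIS+shHMGA1, 13.5 CPM per kilobase of the longest transcript.

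Of the checkpoint kinases and mediators, CHEK1, the kinase downstream of ATR, was the only one called, with a fall of 1.65 on the log2 scale (SE 0.24, adjusted p = 0.000185, edgeR). The share called lower, 1 of 5 tested, was close to the 19.5% of all genes. ATR, ATM and CHEK2 had log2 fold changes of −0.16 (SE 0.12), 0.10 (SE 0.14) and 0.02 (SE 0.21). TP53BP1, which restrains resection at break ends, was at 53.2, 61.8 and 65.1 CPM in shHMGA1 and 48.3, 52.2 and 70.7 CPM in RIS+shHMGA1. These ranges overlapped, with a log2 fold change of TP53BP1 of −0.15 (SE 0.13, adjusted p = 0.327, edgeR). MDC1, the mediator that binds phosphorylated H2AX, was listed at 0 in all 24 libraries and was not tested. Its gene lies on chromosome 6, where 154 of the 167 genes placed between 29 and 33 Mb (GRCh37) were listed at 0 in every library, among them TUBB, ABCF1 and BAG6, which most cells use. A 0 for MDC1 is therefore no measure of its expression, and the cause of these zeros was not tested.

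POLQ, the polymerase of theta-mediated end joining, and EME1, the partner of MUS81 in the nuclease that cuts joined DNA molecules, differed in response. POLQ had 7.55, 12.5 and 16.8 CPM in shHMGA1 and 0.381, 1.06 and 1.46 CPM in RIS+shHMGA1. Its level in RIS+shHMGA1 was 8.10% of that in shHMGA1 (log2 fold change −3.63, SE 0.68, adjusted p = 0.00032, edgeR). EME1 was at 26.2, 35.3 and 40.0 CPM in shHMGA1 and 22.2, 26.1 and 34.6 CPM in RIS+shHMGA1. The ranges of EME1 overlapped, and its log2 fold change was −0.38 (SE 0.13, adjusted p = 0.015, edgeR). Per kilobase of the longest transcript, EME1 had 14.7 CPM in shHMGA1, the highest level of all members by that length, and POLQ had 1.41 CPM. By the canonical transcript, NBN at 19.8 CPM, FANCL at 17.7 CPM and FANCI at 15.8 CPM per kilobase were above EME1 at 14.9 CPM. Exons of EME1 overlap those of LRRC59 on the other strand, and the strand setting of the counts is not known. The level and fold change of EME1 may therefore include reads of LRRC59, which was not tested. NBN, FANCL and FANCI have the same limit, with OSGIN2, VRK2 and POLG.

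**Figure D2:**
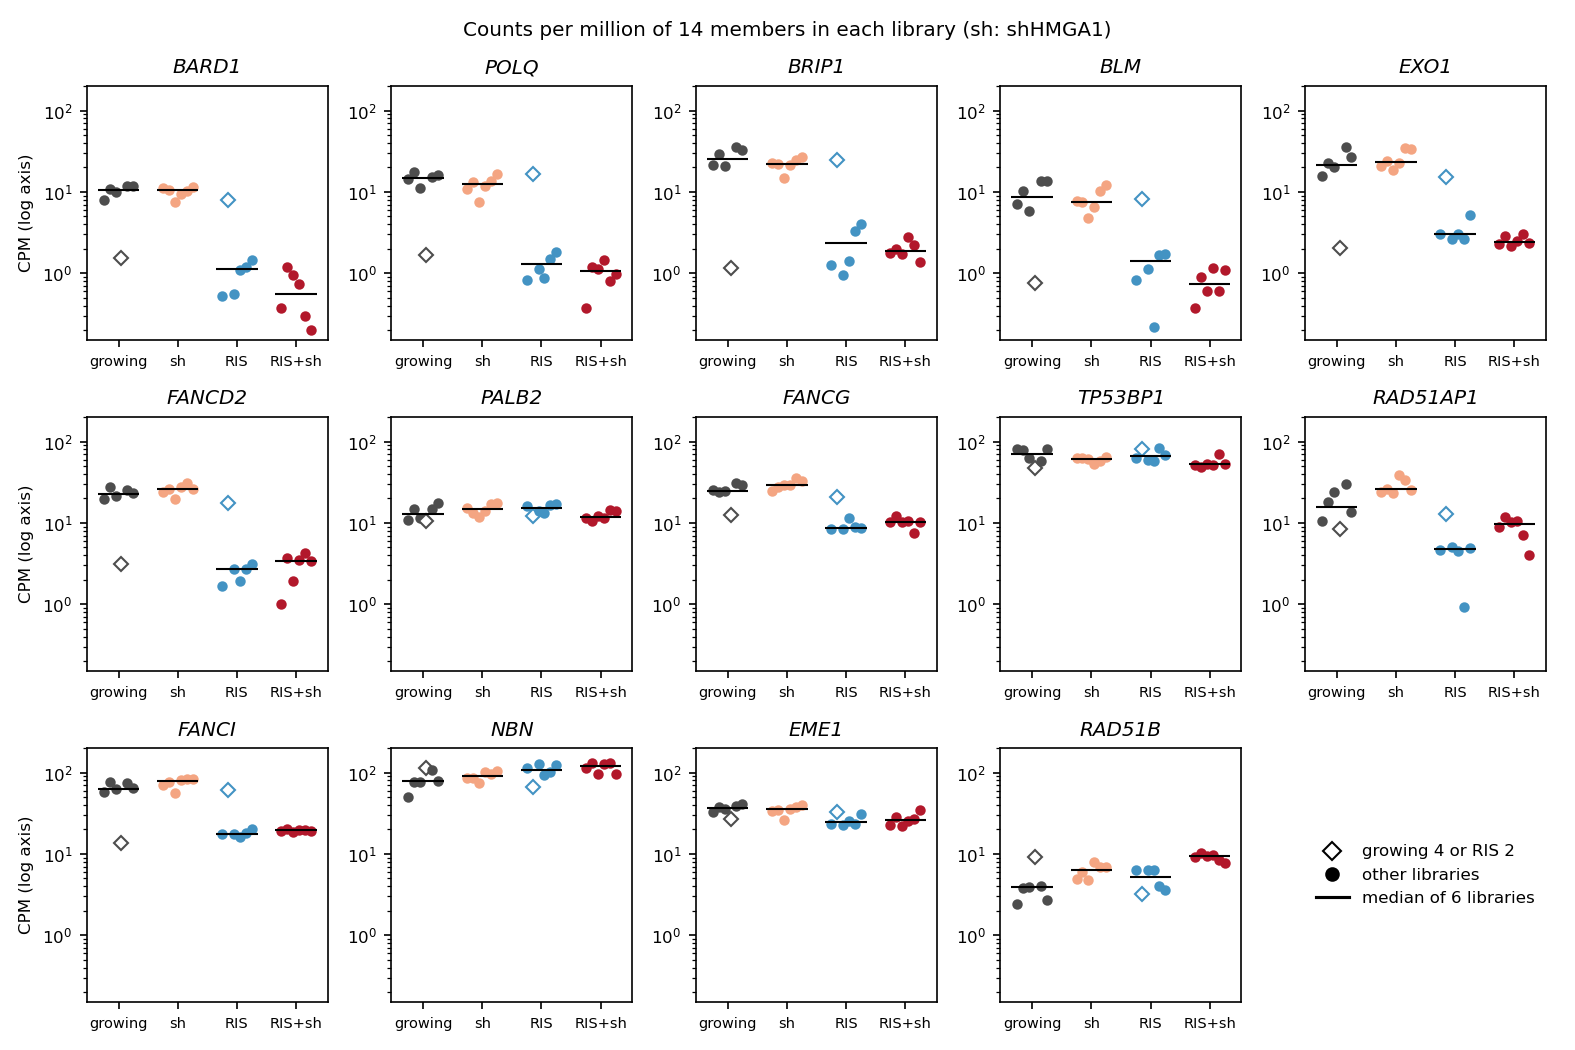
CPM (log axis) in each of the 24 libraries for 14 members: the 6 with the largest falls, the member with the highest level per kilobase in each role group (mean over the 24 libraries), and RAD51B. Each point is a library, bars are medians of 6, and open diamonds are the libraries growing 4 and RIS 2. For FANCD2, growing 4 lies at 3.09 CPM among the 4OHT libraries and RIS 2 at 17.4 CPM near the growing ones.

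The same question in vector cells is answered by RIS against growing, and here the pair of libraries that went against their labels decided the result. With all 24 libraries edgeR called 0 of 36 members, as it called 0.0% of all genes tested; 27 members, and 4407 of the 13356 genes, had an unadjusted p under 0.05, the smallest adjusted p of a member was 0.014, and DESeq2 called 17 members and 4.17% of all genes lower. Without growing 4 and RIS 2, 22 members were lower, where 20.5% of 13416 tested genes were lower, and RAD51B was higher, where 19.2% were higher. The median log2 fold change of the members was −1.02 with them and −1.49 without them. Leaving out only growing 4 gave 22 calls among the members and 25.4% of all genes, and leaving out only RIS 2 gave 22 and 19.2%. Of the 22 members lower with 4OHT in hairpin cells, growing 4 was below each of the other 5 growing libraries in 22, and RIS 2 was above each of the other 5 RIS libraries in 22. Among the 14 other tested members these counts were 6 and 3. The share over all genes was not computed. Whether these libraries were exchanged was not tested.

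FANCD2 shows the size of this effect. The 5 other growing libraries had 19.7, 23.3 and 27.3 CPM as their lowest, median and highest, and growing 4 had 3.09 CPM. In RIS the 5 other libraries had 1.69, 2.71 and 3.10 CPM, and RIS 2 had 17.4 CPM. Each of these libraries thus lay in or next to the range of the other group, and the log2 fold change of FANCD2 was −2.01 with them (SE 0.49, adjusted p = 0.0168, edgeR) and −3.24 without them (SE 0.22, adjusted p = 1.22e-11, edgeR). BRIP1 gave 20.8, 29.2 and 35.6 CPM in the 5 growing libraries and 0.962, 1.42 and 4.02 CPM in the 5 RIS libraries, with 1.16 CPM in growing 4 and 24.4 CPM in RIS 2. Without the pair, BRIP1 had the largest fall in vector cells, −3.65 (SE 0.27), followed by POLQ at −3.56 (SE 0.24), BARD1 at −3.42 (SE 0.26), FANCD2, BLM at −3.10 (SE 0.34) and EXO1 at −2.86 (SE 0.23). These were the same 6 genes as in hairpin cells over all 24 libraries. In hairpin cells without the pair in the fit, BRCA2 at −3.096 fell slightly more than FANCD2 at −3.093. With the pair in the fit, the vector-cell values were −1.99 (SE 0.61) for BRIP1, −1.73 (SE 0.58) for POLQ, −2.08 (SE 0.51) for BARD1, −1.88 (SE 0.54) for BLM and −1.95 (SE 0.45) for EXO1, and none of them was called.

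Vector and hairpin cells share no library in the comparisons of RIS with growing and of RIS+shHMGA1 with shHMGA1. Without growing 4 and RIS 2, 21.9% of 13416 tested genes were called lower in hairpin cells and 20.5% in vector cells. The share of all genes lower in both was not computed. In that fit, 22 of the 23 members called lower in hairpin cells and 22 of the 22 called lower in vector cells were the same genes. The exception was MRE11, at −0.67 (SE 0.12) in hairpin cells and −0.45 (SE 0.14) in vector cells. The difference between these values was not significant, at −0.21 on the log2 scale (SE 0.18, adjusted p = 0.993, edgeR interaction). In the 5 growing and 5 RIS libraries that remained, 23 of 36 members had all growing libraries above all RIS libraries, where 19.3% of all genes had, and only ATR had all RIS libraries above all growing libraries, where 15.9% of all genes had. ATR was at 26.2, 31.2 and 35.1 CPM in these growing libraries and 35.2, 38.0 and 45.0 CPM in RIS, with a log2 fold change of 0.31 (SE 0.12, adjusted p = 0.0322, edgeR) that did not pass the thresholds. With all 24 libraries, 0 members had all growing libraries above all RIS libraries (0.21% of all genes) and 0 had the reverse (0.157% of all genes), and the log2 fold changes were 0.29 (SE 0.12, adjusted p = 0.0937, edgeR) for ATR and −0.32 (SE 0.14) for MRE11.

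**Figure D3:**
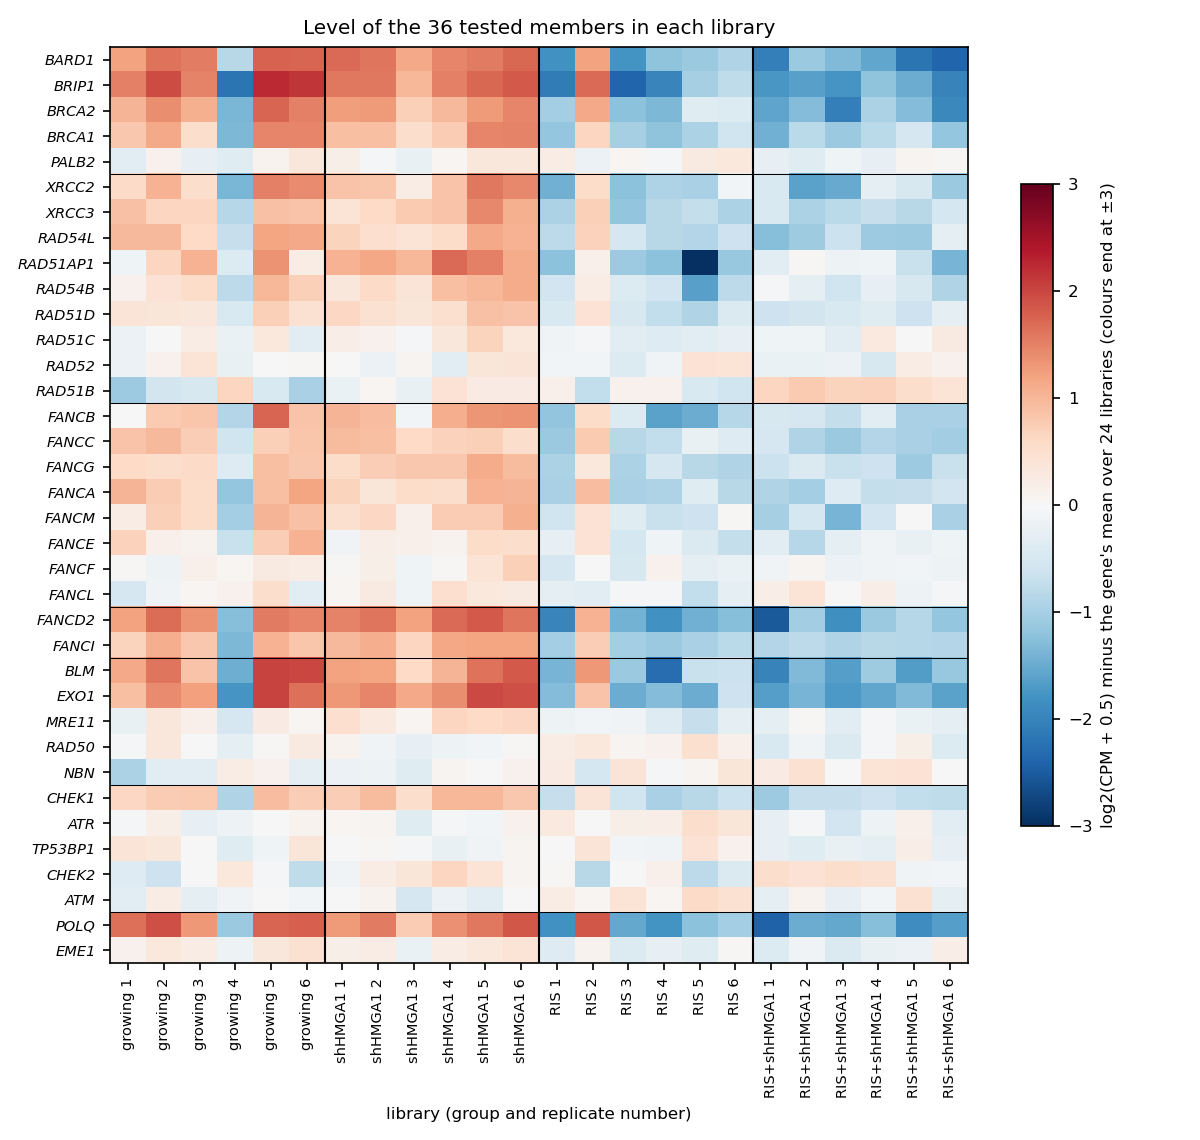
Level of the 36 tested members (rows, grouped by role) in the 24 libraries (columns), as log2(CPM + 0.5) minus the gene's mean over all libraries, with the colour scale ending at ±3. The column growing 4 has the blue pattern of the 4OHT groups in the rows of the 22 lower members, and RIS 2 has the red pattern of the groups without 4OHT.

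RIS+shHMGA1 was also compared with growing, a contrast that changes both the hairpin and 4OHT and shares its libraries with the contrasts above. Of 36 members 21 were lower, where 23.9% of all genes were, and RAD51B was higher, where 22.0% of all genes were. Without the 2 libraries 22 members were lower (28.5% of all genes) and RAD51B, CHEK2 and NBN were higher (28.3% of all genes), with log2 fold changes of 1.44 (SE 0.18), 0.69 (SE 0.19) and 0.59 (SE 0.15).

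The contrasts of hairpin with vector cells asked what the hairpin changed at each 4OHT state. In shHMGA1 against growing, edgeR called 0 of 36 members with all libraries, where 0.27% of all genes were called, DESeq2 also called 0, and 4 members and 13.2% of all genes had an unadjusted p under 0.05. Without growing 4 and RIS 2 only RAD51B was called, where 2.59% of all genes were. The log2 fold changes of the 36 members then ranged from −0.34 to 0.90 with a median of 0.04. In RIS+shHMGA1 against RIS, edgeR called 0 members with all libraries, where 2.55% of all genes were called, 14 members and 49.8% of all genes had an unadjusted p under 0.05, and DESeq2 called 3 members and 11.8% of all genes. Without the pair RAD51B was again the only call, where 12.5% of all genes were called, and the members ranged from −0.89 (BRCA2, SE 0.29, adjusted p = 0.0193, edgeR) to 1.12 (RAD51AP1, SE 0.33, adjusted p = 0.0112, edgeR). ATR and RAD50 had smaller values of −0.51 (SE 0.12, adjusted p = 0.00303, edgeR) and −0.42 (SE 0.12, adjusted p = 0.00756, edgeR) in the same contrast, within the fold threshold. With all 24 libraries the values in this contrast were −1.53 (SE 0.50) for BRCA2, 0.67 (SE 0.39) for RAD51AP1, −0.46 (SE 0.12) for ATR and −0.44 (SE 0.12) for RAD50.

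Without the pair RAD51B was called higher in 4 of the 5 contrasts between groups, and over all 24 libraries only in RIS+shHMGA1 against growing, at 1.099 (SE 0.25). Its lowest, median and highest values were 2.46, 3.79 and 4.09 CPM in the 5 growing libraries without growing 4, which had 9.26 CPM. They were 4.83, 6.43 and 8.01 CPM in shHMGA1. In RIS they were 3.65, 6.33 and 6.43 CPM in 5 libraries, with 3.26 CPM in RIS 2, and in RIS+shHMGA1 7.84, 9.32 and 10.3 CPM. Without the pair, RAD51B had every hairpin library above every vector library both with and without 4OHT, which was true of no other tested member and of 1.48% of all genes tested. Over all 24 libraries this held for 0 members and 0.187% of all genes. Its log2 fold change with the hairpin was then 0.90 (SE 0.18, adjusted p = 0.00293, edgeR) without 4OHT and 0.78 (SE 0.18, adjusted p = 0.00281, edgeR) with it. With all 24 libraries these values were 0.56 (SE 0.25, adjusted p = 0.338, edgeR) and 0.87 (SE 0.25, adjusted p = 0.0177, edgeR). RIS libraries 5 and 6 had the lowest RAD51B values of the 5 RIS libraries, and over numbers 5 and 6 alone the change with 4OHT in vector cells was 0.17 (SE 0.27, adjusted p = 0.686, edgeR). RAD51B was read from 31 to 112 counts per library.

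The interaction of hairpin and 4OHT asks directly whether 4OHT acted differently in hairpin cells. With all libraries edgeR called 0 of 36 members and 0.0% of all genes, 6 members and 10.3% of all genes had an unadjusted p under 0.05, and DESeq2 also called 0 members. Without growing 4 and RIS 2 it called 0 members and 0.00745% of all genes (1 gene), and 2 members and 3.82% of all genes had an unadjusted p under 0.05. The member differences then lay between −0.70 (BRCA2, SE 0.35) and 0.55 (RAD51AP1, SE 0.43), with a median SE of 0.25, so that differences of this size were not resolved.

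Other genes of the pathways, which were listed by role, are given for the comparison of RIS+shHMGA1 with shHMGA1. Of 46 further homologous recombination and Fanconi genes 17 were lower and 9 higher, with a median log2 fold change of −0.25. The share of rises was close to the 19.6% of all genes called higher, and 19.5% of all genes were called lower. The falls included those of RMI2, a subunit of the BLM complex, at −2.67 (SE 0.54) and USP1, which removes ubiquitin from FANCD2, at −2.01 (SE 0.35). The largest rises were those of SFR1 at 1.22 (SE 0.36), ERCC1 at 1.20 (SE 0.25) and ABRAXAS1 at 1.19 (SE 0.34). Of 18 further checkpoint genes 11 were lower, led by CLSPN at −3.55 (SE 0.65), the adaptor through which ATR activates CHEK1, and 1 was higher, HUS1 at 0.80 (SE 0.18). Of the 13 E2F and DREAM regulators 9 were lower, with E2F8, MYBL2 and E2F2 at −4.86 (SE 1.01), −4.78 (SE 0.84) and −4.74 (SE 0.91), and E2F7 was higher at 0.84 (SE 0.22).

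Repair pathways that do not need a sister chromatid had lower shares of falls than the members. Of all genes tested, 19.5% were called lower and 19.6% higher. In nonhomologous end joining, which ligates break ends directly, 0 of 10 genes were called by edgeR or DESeq2, 4 had an unadjusted p under 0.05, and the log2 fold changes ranged from −0.68 to 0.58. Without growing 4 and RIS 2 in the fit, 1 was called lower and 1 higher. Nucleotide excision repair had 0 lower and 4 higher of 15, all subunits of the transcription factor TFIIH, led by GTF2H5 at 1.16 (SE 0.33). DESeq2 called 0 lower and 4 higher, and 8 of the 15 had an unadjusted p under 0.05. The rises did not extend to the other TFIIH subunits listed. ERCC2 and ERCC3 were not called, at −0.46 (SE 0.13) and −0.075 (SE 0.092), and GTF2H4 was listed at 0 and not tested. Base excision repair had 3 lower and 3 higher of 17, led by NEIL3 at −2.53 (SE 0.49) and MPG at 1.101 (SE 0.30). DESeq2 called 3 lower and 6 higher, and without growing 4 and RIS 2 edgeR called 3 lower and 5 higher. The 12 proliferation markers were all lower, from −4.33 (MKI67, SE 0.87) to −0.62 (PCNA, SE 0.17). Their summed level was 1017 to 1592 CPM in shHMGA1 and 253 to 327 CPM in RIS+shHMGA1. No test was made of the difference between these lists.

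**Figure D4:**
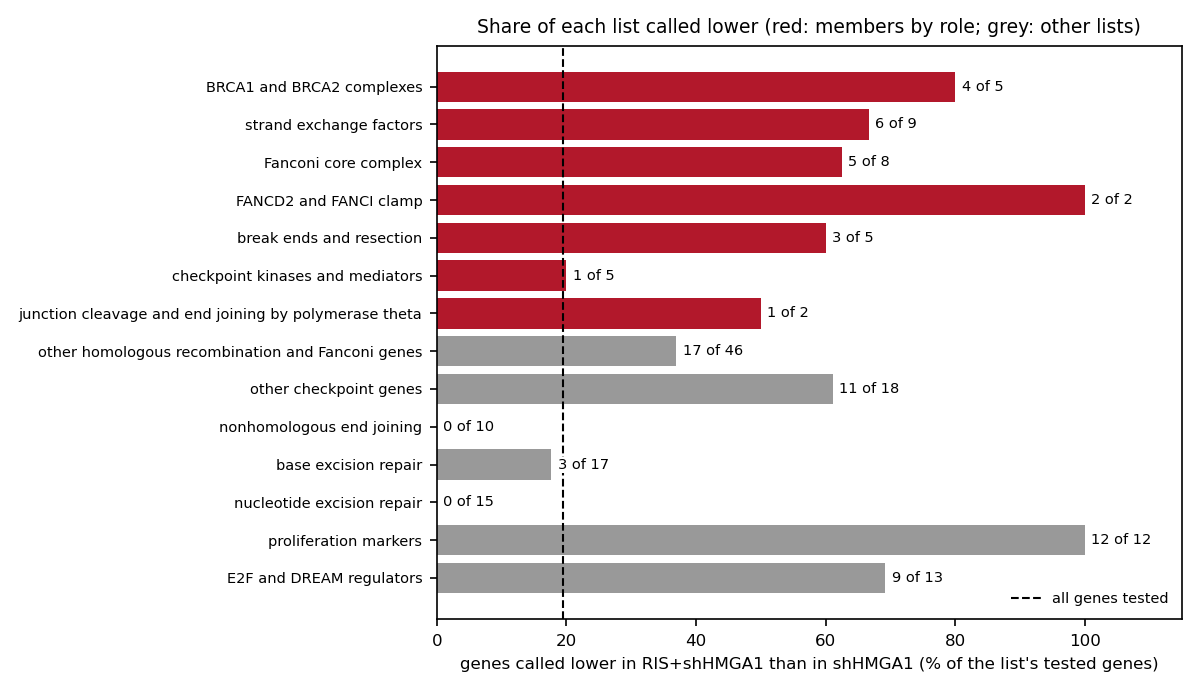
Share of the tested genes of each list that was called lower in RIS+shHMGA1 than in shHMGA1 (x axis, percent), with the counts beside the bars; red bars are the members by role, grey bars other lists, and the dashed line is the 19.5% of all genes tested. The bars of nonhomologous end joining and nucleotide excision repair are at 0, and those of the clamp and of the proliferation markers at 100%.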

How the data were processed

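RNA-seq of 24 samples was analysed. Per the labels, the authors used STAR 2.5.0b, cutadapt 1.10.0 and hg19, and the deposited values are raw counts per Entrez gene identifier from Rsubread. The Rsubread version, annotation and strand setting are not given in the sources used here. Exons of 21 of the 37 members overlap a gene on the other strand (GENCODE v44lift37), and 6 have a named pseudogene, FANCD2 and CHEK2 among them, so their counts may include or lack shared reads. Identifiers were given RefSeq symbols (23696 of 25702).

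Counts were filtered by group with filterByExpr, normalised by TMM and fitted as group means over all 24 samples with edgeR 4.0.16 (R 4.3.3, quasi-likelihood test). Following the study's methods, calls needed an adjusted p under 0.01 and a log2 fold change beyond ±0.58. CPM values use TMM library sizes; levels per kilobase divide CPM by the longest annotated transcript. No pair of replicates agreed within sampling noise. The fit was tested on simulated data. Alternatives were DESeq2 1.42.0, RLE normalisation, other filters and thresholds, a replicate block, fits on the contrasted samples and fits without each replicate number; those without the libraries growing 4 and RIS 2 or by replicate number were chosen after seeing the data.

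The members and lists were chosen with earlier results of these data known. Values per library are given for the 6 largest falls, the member with most counts per kilobase in each role group and members against their group's direction (NBN, RAD51B). For BRCA1, FANCL and ATR they were added after their values were seen. The level per kilobase for this choice was the mean over all 24 libraries. In shHMGA1 alone, BRCA1 (3.31 CPM per kilobase) was above PALB2 (2.86), and CHEK1 (7.51) was above TP53BP1 (5.84). Other list genes are given by counts and up to 3 of the larger changes; a few are not reported here.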

Additional observations from a re-analysis of the deposited data

Results flagged for a closer look

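Within each group of 6, a library was listed where its gap to the nearest other library, over the range of the group, exceeded Dixon's 95% critical value for 6 samples. Of 60 such group checks, on total counts and on log2 CPM of the 14 members shown by library, 17 were past it, where chance gives about 1 in 20 groups. The library growing 4 accounted for 8 of these and RIS 2 for 5.

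In growing 4, the ratio was 0.801 for BARD1, 0.8 for POLQ, 0.837 for BRIP1, 0.686 for BLM, 0.714 for EXO1, 0.848 for FANCD2, 0.708 for FANCG and 0.829 for FANCI, each with growing 4 as the lowest of its group. In RIS 2 it was 0.653 for BARD1, 0.76 for POLQ, 0.748 for FANCD2, 0.652 for FANCG and 0.835 for FANCI, each with RIS 2 as the highest.

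RIS+shHMGA1 5 stood apart for FANCG (0.642, lowest) and TP53BP1 (0.757, highest). Total counts stood apart in growing 1 (0.796) and RIS 3 (0.684).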

How the results depend on the processing

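Members called, RIS against growing, depended most on the processing: against 0 in the fit of all 24 libraries, 17 were called by DESeq2, 21 at an adjusted p under 0.05, 0 to 21 when one replicate number was left out (21 without number 2, which holds RIS 2, and 20 without number 4, which holds growing 4), 22 without the library growing 4, 22 without the library RIS 2, 23 without both, 23 without both with a replicate block, 24 over numbers 1 to 4 without both and 22 over numbers 5 and 6. Of all genes tested, 0.0% were called in the fit of all 24 libraries, 6.21% by DESeq2, 13.7% without number 2 and 15.6% without number 4. The share was 25.4% without growing 4, 19.2% without RIS 2, 39.7% without both and 39.1% without both with the block. Over numbers 1 to 4 it was 47.8%, and over numbers 5 and 6 it was 16.2%. For shHMGA1 against growing, against 0, there were 1 without both libraries, 1 with a replicate block added and 2 over numbers 1 to 4. The shares of all genes called there were 2.59%, 3.61% and 7.16%, against 0.27%. For RIS+shHMGA1 against RIS, against 0, there were 3 by DESeq2, 1 with the replicate block, 5 at an adjusted p under 0.05, 0 to 2 leaving out replicate numbers (2 without number 4), 1 without both libraries, 2 with the block added, 2 without the library growing 4 and 1 over numbers 1 to 4. Against 2.55% of all genes, 11.8% were called by DESeq2, 12.3% with the replicate block, 16.5% without number 4 and 12.5% without both libraries. The share was 14.4% with the block added, 19.0% without growing 4 and 10.4% over numbers 1 to 4. Calls in RIS+shHMGA1 against shHMGA1 and against growing stayed within 1.5 times under all alternatives run, and the interaction stayed at 0.

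Sign changes were found only for values that were not called. In RIS+shHMGA1 against RIS, FANCD2 turned positive, at −0.995 to 0.20 leaving out replicate numbers (0.20 without number 2), 0.28 without both libraries, 0.22 with a replicate block added, 0.28 without RIS 2, 0.20 over numbers 1 to 4 and 0.46 over numbers 5 and 6. FANCG was at −0.21 to 0.090, 0.15, 0.16, 0.15 and 0.19 in the first 5 of these settings, and FANCI at −0.44 to 0.12, 0.13, 0.11, 0.13, 0.18 and 0.087 in all 6. Over numbers 1 to 4, BARD1 was at 0.23, POLQ at 0.0935 and BRIP1 at 0.73. TP53BP1 was at 0.074 in RIS+shHMGA1 against shHMGA1 over numbers 5 and 6, and in RIS against growing at −0.12 without both libraries and −0.31 over numbers 1 to 4. The cause of these changes was not tested beyond the libraries left out.

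The main fit did not pair samples by replicate number. In their deviations from the group means, 24 of 36 same-numbered pairs correlated above 0.1. Their mean r was 0.175 (−0.594 to 0.828), against −0.0496 for pairs of different numbers, so that some variation shared by number is possible. With the block, 22, 0, 21, 0, 1 and 0 members were called in the 6 contrasts, taken in the order of the report. The shares of all genes called were 42.4%, 0.00749%, 48.3%, 0.27%, 12.3% and 0.0%. By canonical transcript in place of the longest, FANCL and not FANCG had the most counts per kilobase in the core complex (15.4 against 7.38 over all libraries). Levels under about 1 CPM, as of BARD1 and BLM after 4OHT, rest on as few as 2 reads.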

Other observations

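Among the libraries without 4OHT, those numbered 5 and 6 had higher levels of several members than those numbered 1 to 4, a pattern noticed in the data and not part of any planned comparison. In both growing (without growing 4) and shHMGA1, libraries 5 and 6 both lay above each of the other libraries for 14 of 36 members, among them BRCA1, BRCA2, BRIP1, EXO1 and BLM, and for 6.71% of all genes tested. For no member did both lie below, where 6.51% of all genes did. In RIS+shHMGA1 libraries 5 and 6 both lay above the others for 2 members, PALB2 and RAD52, where 16.1% of all genes did, and both below for 6 members, where 25.7% did. In RIS (without RIS 2) they both lay above the others for 14 members, among them BRCA1, BRCA2, BRIP1 and BLM, where 29.7% of all genes did, and both below for 4 members, where 27.9% did. The labels give no batch for these numbers, and no test was run.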
